A study of Caenorhabditis elegans with 2 samples.

Results

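Genes that set sex and carry out X-chromosome dosage compensation in the nematode Caenorhabditis elegans were examined as a set of 10: xol-1, her-1, sdc-1, sdc-2, sdc-3, dpy-21, dpy-26, dpy-27, dpy-28 and dpy-30. They are 10 of the 19973 nuclear protein-coding genes of the WBcel235 gene models. They were taken by name, by a rule that uses no measured value, but with earlier results of these data known. For each of them every deposited call of a chromatin immunoprecipitation and sequencing (ChIP-seq) experiment was collected whose summit lay between 5 kb upstream of the gene and its end. That interval is called the gene window below.

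The ChIP-seq experiment mapped ROW-1, the product of row-1 (F37D6.2), a protein with zinc fingers. The strain, OP510, has the genotype unc-119(tm4063) III; wgIs510 and carries GFP and FLAG at the C terminus of the protein, and an antibody against GFP was used. Whole hermaphrodites were collected at the L4 larval stage, 48 h after release of L1 larvae that had been starved after bleaching, in 1 group of 2 biological replicates. No other genotype, stage or sex was examined here and no control library, so signal that any GFP-tagged protein might give at a site is not separated from binding by ROW-1, and no source used here gives the driving promoter or copy number of the transgene. Because whole animals were used, a call does not show which cells carried it.

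In C. elegans, animals with a pair of X chromosomes become hermaphrodites and those with a single X become males. The switch gene xol-1 is kept low in hermaphrodites by proteins encoded on the X itself, which leaves the SDC proteins free to assemble the dosage compensation complex on both X chromosomes and to repress the male-promoting gene her-1. The complex contains a condensin, lowers transcription along X, and first binds at recruitment sites on X that share a sequence motif. xol-1 acts in the embryo, long before the stage sampled here.

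The deposited signal is a value per call on a scale that is not given, so calls are compared by rank within a list, rank 1 being the strongest. The submitters' pooled list held 30000 calls, most of them weak, down to a signal of 12.4, since it was made to hold peaks and background. Their optimal list, which passed a test of reproducibility between replicates, held 1574 calls down to a signal of 74.8, and these were the 1574 strongest pooled calls. The lists of replicate 1 and replicate 2 held 28339 and 25405 calls.

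Of the 10 genes, 5 had an optimal call in their window: xol-1, sdc-1, sdc-2, dpy-21 and dpy-28. Among all nuclear protein-coding genes the share was 12.5%. All 3 members on X had such a call (xol-1, sdc-1, sdc-2), against 14.8% of all coding genes on X, and 2 of the 7 on autosomes (dpy-21 on V, dpy-28 on III), against 12.1% of all autosomal coding genes. The windows of the members were longer than usual, with a median of 11.7 kb against 7.03 kb over all coding genes. Every one of the 6 optimal calls lay upstream of the gene and none inside it. sdc-2 was the only member with an optimal call within 2 kb upstream or in the gene (1 of 10, against a background of 8.6%). No test was run on these counts, since the genes were chosen with results of the same data known.

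Other ways of counting gave other pictures. No member had an optimal call in the gene body, where the background was 1.88%. In a promoter window, from 500 bp upstream to 200 bp past a 5′ end, sdc-2 alone had one, against 4.58%. When each summit was given to the nearest coding 5′ end only, xol-1 and sdc-2 remained, 2 of 10 against 6.77%. The 787 strongest optimal calls left 4 members (all but sdc-1) against 6.62%, and the 3148 strongest pooled calls gave 6 (her-1 being added) against 20.9%. With intervals that overlapped the window in place of summits, 5 members had an optimal call against 13.1%. The ce10 optimal list, matched by signal, gave 6 (her-1 again being added) against 16.1%. Taking the 1574 strongest calls of replicate 2 alone gave 4 members against 12%, and those of replicate 1 alone gave 4 against 12.6%, sdc-1 being absent from both. Of all pooled calls, windows from 2 kb upstream to the gene end held one for 7 members against 55.5%. Promoter windows of 5 members held one against 29.2%, and 5 gene bodies against 38.3%. Pooled intervals that overlapped the window, rather than summits, were found for 8 members against 66.6%. All 3 members on X had a pooled call in the window against 72.6% of coding genes on X, and 5 of the 7 on autosomes against 64.2%. In the list of either replicate alone 9 members had a call against 68.7%.

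**Figure D1:**
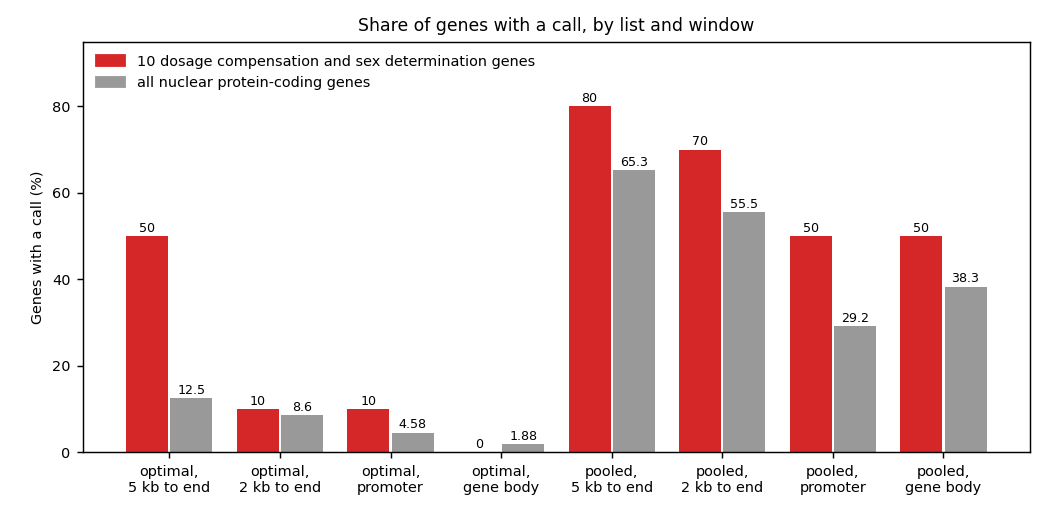
Share of genes with at least 1 call, in percent, for the 10 dosage compensation and sex determination genes (red) and for all 19973 nuclear protein-coding genes (grey), by call list and window. With optimal calls the shares are 50% and 12.5% in the window that starts 5 kb upstream, but 10% and 8.6% in the window that starts 2 kb upstream.

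Sequences of 101 bases around the summits are given here because they show how unlike the sites of the members are. They run 5′ to 3′ on the plus strand of WBcel235 (RefSeq assembly, the same as ce11), and capitals mark GCGCAGGG on either strand, the core of the motif of recruitment sites on X, or any of the 5 hexamers that lead the other optimal summits (described further on).
xol-1, stronger summit, chrX:8036374-8036474: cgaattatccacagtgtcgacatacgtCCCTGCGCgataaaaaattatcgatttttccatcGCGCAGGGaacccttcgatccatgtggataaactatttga
xol-1, weaker summit, chrX:8036581-8036681: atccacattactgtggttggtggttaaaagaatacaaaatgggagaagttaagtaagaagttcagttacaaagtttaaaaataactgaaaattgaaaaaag
sdc-2, chrX:11522227-11522327: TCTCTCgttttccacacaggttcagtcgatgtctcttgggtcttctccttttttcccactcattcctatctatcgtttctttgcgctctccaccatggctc
sdc-1, distal summit, chrX:16271306-16271406: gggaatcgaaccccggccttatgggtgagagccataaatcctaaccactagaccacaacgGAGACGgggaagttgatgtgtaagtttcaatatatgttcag
sdc-1, promoter summit below the optimal list, chrX:16275370-16275470: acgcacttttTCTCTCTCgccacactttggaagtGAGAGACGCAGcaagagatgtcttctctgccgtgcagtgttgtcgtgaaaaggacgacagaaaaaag
dpy-21, chrV:17951364-17951464: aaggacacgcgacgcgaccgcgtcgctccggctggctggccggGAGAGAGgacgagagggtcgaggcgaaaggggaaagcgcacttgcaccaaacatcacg
dpy-28, chrIII:10759200-10759300: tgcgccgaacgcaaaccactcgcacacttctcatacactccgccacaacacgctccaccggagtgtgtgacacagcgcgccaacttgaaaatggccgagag

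xol-1 (WBGene00006962, chromosome X, 8041313 to 8044409, plus strand) had the strongest call of the set. xol-1 encodes the switch protein that directs male development and blocks dosage compensation when it is made. An interval from 8035973 to 8036981 held both of its optimal calls. The stronger summit, at 8036424, lay 4889 bp upstream of the 5′ end and had a signal of 1472, rank 14 of 1574. It had rank 14 in each replicate list as well, with signals of 819 in replicate 1 and 665 in replicate 2 and summits 10 bp apart. Of the 13 calls above it in the optimal list, 8 were mitochondrial, 5 were on X and none was on an autosome, which gave it rank 6 among nuclear calls. The calls next to it in rank were one on X with a signal of 1482, 1792 bp upstream of F20B6.9, and a mitochondrial one with 1465.

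The weaker xol-1 summit, at 8036631 and 4682 bp upstream, had a signal of 448 and rank 56. Here replicate 1 gave the lower value, 194 (rank 98), and replicate 2 the higher, 255 (rank 42). That ratio of 0.758 was the lowest among the 6 optimal calls of the set, whose other ratios of replicate 1 to replicate 2 ran from 1.23 to 2.13, beside a median of 1.43 over the 1571 optimal calls with a counterpart in both replicates. Both summits lay in a stretch of 9698 bp without a coding gene between C34D10.1 and xol-1. No other coding gene had either summit in its window, and xol-1 had the nearest coding 5′ end. The annotated noncoding RNA C18A11.13 began 250 bp from the stronger summit and 43 bp from the weaker one, both summits being upstream of it. The rest of the xol-1 window, including the promoter and the gene, had no call in any of the lists. Since both summits lay close to the 5-kb limit, whether xol-1 is counted depends on where that limit is drawn.

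her-1 (WBGene00001842, V, 9697015 to 9702035, plus strand) encodes a secreted protein that promotes male fates by binding the receptor TRA-2, and its transcription is repressed by the SDC proteins in hermaphrodites. It had no optimal call. Its strongest pooled call, with a summit 4618 bp upstream at 9692397, had a signal of 66.8 and rank 1856, just under the lowest optimal signal. The counterparts had a signal of 43.4 (rank 1714) in replicate 1 and 23.1 (rank 3003) in replicate 2. This summit lay 238 bp upstream of the 5′ end of ztf-9 and in the windows of 4 coding genes. On the assembly ce10 the optimal list was longer, with 2157 calls down to a signal of 60.5, and it held a chromosome V call of the same signal, width and summit offset as this one. her-1 was the only member whose count differed between the optimal lists of the assemblies. Inside her-1, the only pooled call lay in intron 3 with a signal of 26.6 (rank 8591), 554 bp past an internal annotated 5′ end, and it had a counterpart in replicate 2 alone.

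**Figure D2:**
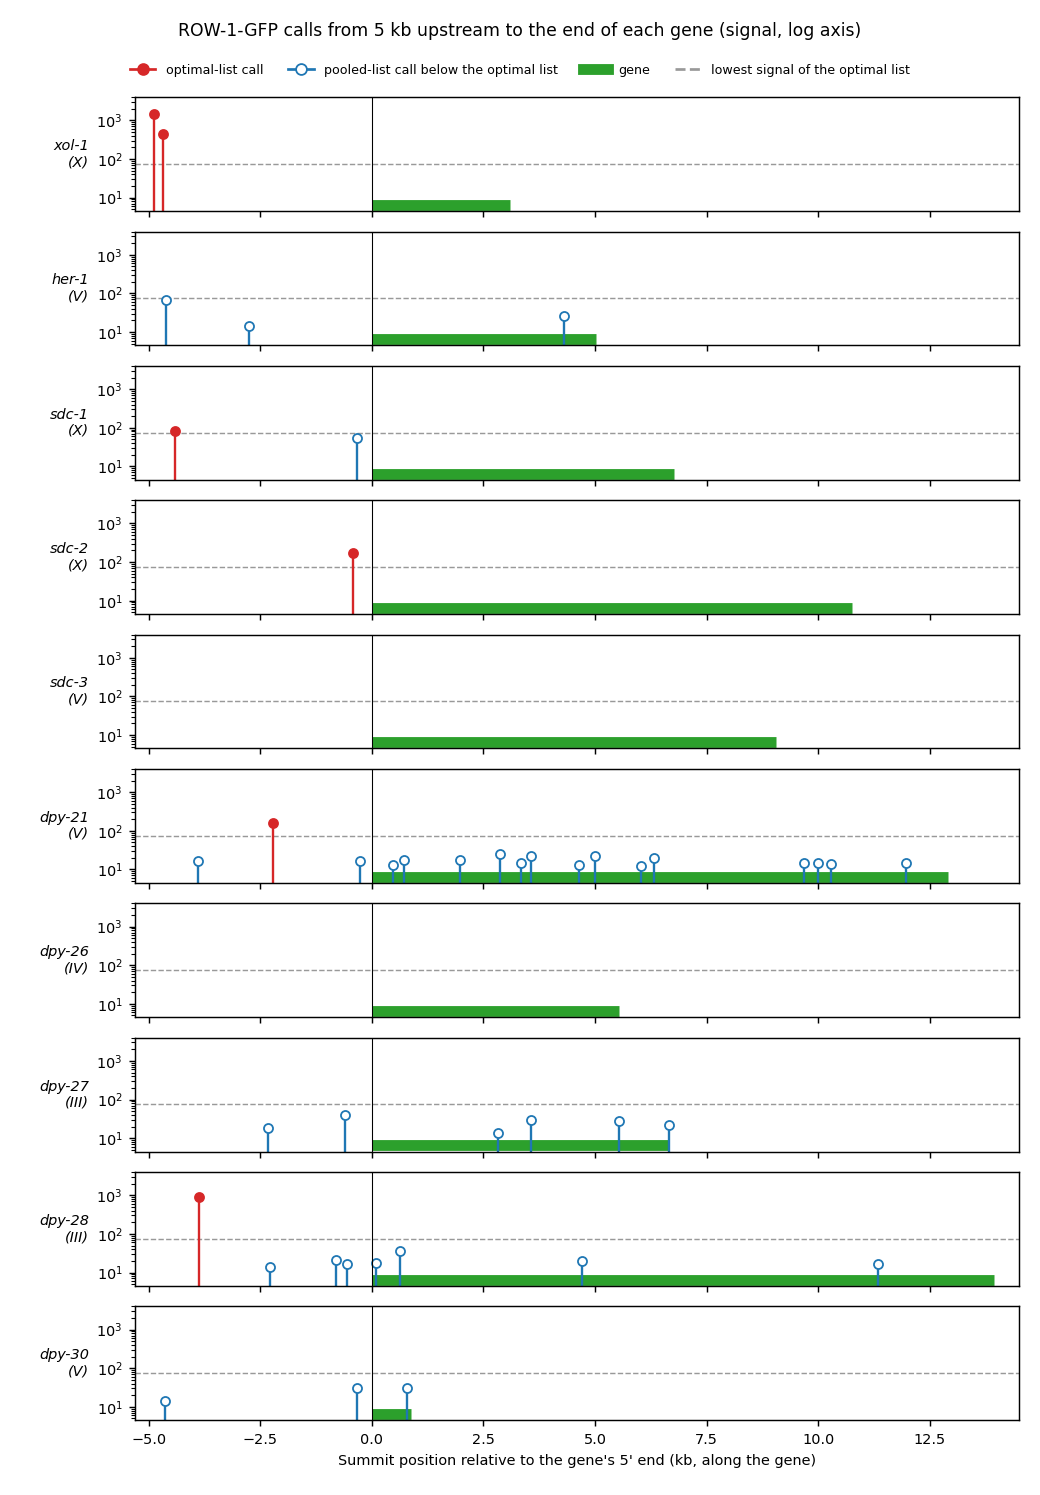
Pooled calls in the window of each gene, by the position of the summit relative to the 5′ end (kb) and by signal (log axis), with calls of the optimal list in red, weaker ones in blue, genes as green bars and the lowest optimal signal of 74.8 as a dashed line. All 6 red calls stand upstream of their gene, and those of xol-1, sdc-1, dpy-21 and dpy-28 stand more than 2 kb away from it.

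Of the 3 SDC genes, which encode the proteins that bring the complex to X, sdc-2 and sdc-1 had optimal calls and sdc-3 had no call at all. sdc-2 (WBGene00004746, X, 11522707 to 11533450, plus strand) encodes the SDC protein that is made in hermaphrodites and triggers assembly of the complex. It had 1 call in each of the lists, at its promoter. The optimal summit, at 11522277 and 430 bp upstream of the single annotated 5′ end, had a signal of 172 and rank 376. The signal was 119 (rank 273) in replicate 1 and 56.0 (rank 637) in replicate 2, a ratio of 2.13 that was the highest among the 6 optimal calls, and the summits were 45 bp apart. The neighbour upstream, hpo-34, is transcribed in the opposite direction and lies 3640 bp from sdc-2, and the summit was nearer to the 5′ end of sdc-2 than to that of any other gene of any type.

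sdc-1 (WBGene00004745, X, 16275763 to 16282534, plus strand), which encodes a zinc finger protein, had the weakest optimal call of the set. Its summit, 4407 bp upstream at 16271356, had a signal of 81.4 and rank 1392. The replicate signals were 42.6 (rank 1759) and 32.6 (rank 1594) in replicates 1 and 2, so this call was below the 1574 strongest in either replicate alone. The summit fell inside a tRNA gene (WBGene00014388), 11 bp from that gene's 5′ end, and the nearest coding 5′ end was that of ifa-3 at 1287 bp. A second pooled call lay at the sdc-1 promoter itself, 343 bp upstream at 16275420. It had a signal of 53.1 and rank 2553, with 26.3 (rank 3698) in replicate 1 and 26.5 (rank 2280) in replicate 2 at the same summit position, and it was in neither optimal list.

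sdc-3 (WBGene00004747, V, 15039148 to 15048207, minus strand) encodes a further zinc finger protein of the recruiting group. Its window of 14.1 kb held no call in the optimal, pooled or replicate lists. The nearest pooled summit lay 7335 bp from the gene with a signal of 14.3, and the nearest optimal summit 23.2 kb away. Windows without a pooled call were not rare, with 34.7% of all coding genes lacking one, beside 2 of the 10 members (sdc-3 and dpy-26). The windows of all coding genes were shorter, however, with a median of 7.03 kb. The share without a call among windows as long as that of sdc-3 was not computed. A list of calls gives no read counts, so how much signal a window without a call held is unknown.

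The genes of the complex itself differed as widely. dpy-28 (WBGene00001087, III, 10763131 to 10777076, plus strand), which encodes a condensin subunit of the CAP-D2 type, had an optimal call with a signal of 882 and rank 30 at 10759250. The replicates gave 542 (rank 26) and 342 (rank 36), with summits 1 bp apart. This summit lay 3881 bp upstream of dpy-28 but only 57 bp upstream of the 5′ end of tasp-1, in the windows of 5 coding genes. tasp-1 runs in the same direction as dpy-28 and ends 109 bp before it. The other 7 pooled calls of dpy-28 were weak, with the highest, in intron 1 at a signal of 35.2, at rank 5007.

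dpy-21 (WBGene00001080, V, 17936282 to 17949193, minus strand) encodes a histone demethylase that acts on lysine 20 of histone H4. Its optimal call, at 17951414 and 2221 bp upstream, had a signal of 161 and rank 435. The signal was 100.3 (rank 392) in replicate 1 and 59.8 (rank 569) in replicate 2. The nearest 5′ end was that of Y59A8B.24, the oppositely transcribed neighbour, at 535 bp. dpy-21 also held the most pooled calls of any member, 17 in a window of 17.9 kb, or 0.949 per kb. Summed over the 10 members the density was 0.337 per kb, against 0.292 per kb over all coding genes. dpy-21 alone gave 17 of the 42 calls in that sum. her-1, dpy-27, dpy-28 and dpy-30 also lay above 0.292 per kb, and xol-1, sdc-1, sdc-2, sdc-3 and dpy-26 lay below it. The 16 other pooled calls of dpy-21 had ranks from 9450 down to 29964 and signals of at most 25.4, and 7 lay in coding exons and 7 in introns. Only 7 of the 17 overlapped a call in both replicates. The replicate summits were 20 bp apart for the optimal call and 12 bp apart for the call at rank 9450. For the rest of the 7 they were 293 to 507 bp apart.

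dpy-27 (WBGene00001086, III, 3813018 to 3819679, minus strand) encodes the SMC protein that sets the dosage compensation condensin apart from the mitotic ones. It had 6 pooled calls and no optimal one. The strongest, 612 bp upstream of the gene at 3820291, had a signal of 39.2 (rank 4128), with 27.1 (rank 3531) in replicate 1 and 22.2 (rank 3241) in replicate 2, and it lay 18 bp from the 5′ end of the noncoding RNA R13G10.5. dpy-30 (WBGene00001088, V, 12191519 to 12192385, plus strand) encodes a small protein shared with histone H3 lysine 4 methyltransferase complexes. Its strongest pooled calls were an intronic one with a signal of 31.3 (rank 6224), 24 bp inside the 5′ end of rnp-1, and a promoter call 324 bp upstream with 30.6 (rank 6484). For the promoter call the replicates gave 18.1 and 17.4, with summits 153 bp apart.

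dpy-26 (WBGene00001085, IV, 12445801 to 12451335, minus strand), the gene of the kleisin that closes the condensin ring, had no pooled call. Replicate 1 had 2 calls there, one at 99 bp upstream with a signal of 20.4 (rank 5939) and one in a coding exon with 9.74 (rank 23049). Replicate 2 had 1 call, in another coding exon, with 8.20 (rank 25219). None of the 3 was seen in both replicates.

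**Figure D3:**
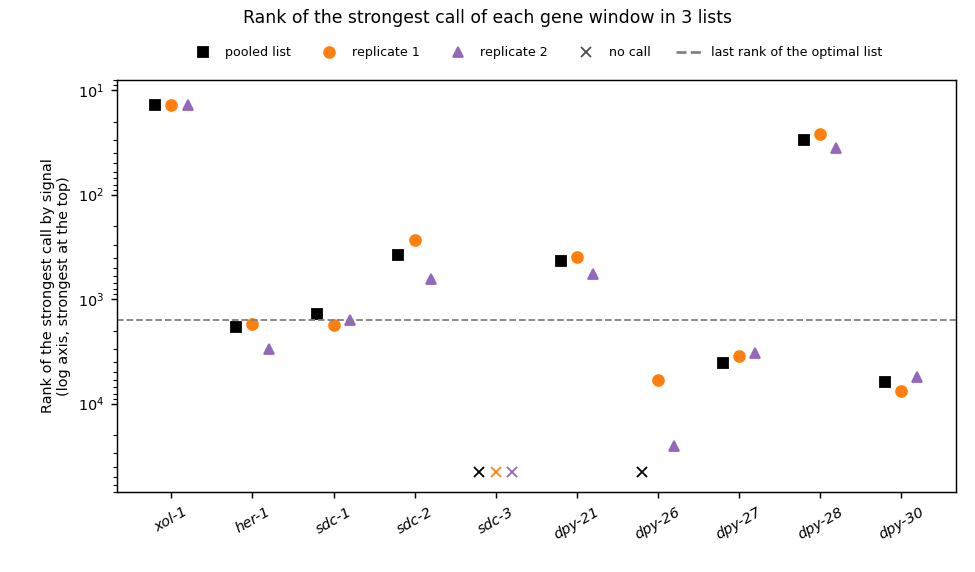
Rank of the strongest call in each gene window in the pooled list, replicate 1 and replicate 2 (log axis, strongest at the top); crosses mark windows without a call and the dashed line is the last rank of the optimal list, 1574. xol-1 and dpy-28 stand within ranks 14 to 36 in all 3 lists, while sdc-1 and her-1 lie around the line.

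By rank, then, the members ran from xol-1 and dpy-28, both among the 100 strongest optimal calls, through sdc-2 and dpy-21 at ranks 376 and 435, to sdc-1 at 1392 and her-1 at 1856. Of all coding genes, 0.746% had one of the 100 strongest calls in their window. That cut was chosen after the values were seen, so 2 of 10 members beside this share is a description only. The dpy-28 call lay nearest to the 5′ end of tasp-1, and the stronger xol-1 summit lay 4889 bp upstream, near the 5-kb limit. The ranks of sdc-2 and dpy-21 lay closer together than those of the same call in the replicate lists (273 and 637 for sdc-2, 392 and 569 for dpy-21), so their order is within the spread of the replicates. The order of sdc-1 and her-1 differed between the replicates, with ranks 1759 for sdc-1 and 1714 for her-1 in replicate 1, and 1594 for sdc-1 and 3003 for her-1 in replicate 2. In the pooled list 8 of the 10 had any call, against 65.3% of all coding genes, and 7 had one with a q-value of at most 0.05, against 27%. Of the 42 pooled calls of the set, 18 were upstream of the gene, 12 in introns, 11 in coding exons and 1 in a UTR exon, and 22 had a signal under the list's median of 20.0. A counterpart in both replicates existed for 54.8% of the 42, close to the 51.6% of all pooled calls.

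The sites of the set did not share 1 sequence. The stronger xol-1 summit had the 8-letter motif GCGCAGGG (searched on both strands, where the other strand reads CCCTGCGC) in 2 copies, at 8036401 to 8036408 on the minus strand and 8036435 to 8036442 on the plus strand. The copies stand on opposite strands on either side of the summit, which lies 23 bp from the lowest coordinate of the first and 11 bp from that of the second. The motif is the core of the longer sequence known from recruitment sites of the dosage compensation complex on X. No other optimal call of the set had it within 50 bp of the summit. The only other copy in any of the 10 windows was inside her-1, 1976 bp past its 5′ end, and the nearest pooled summit was 2333 bp from it.

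The motif was found at 14 of the 351 optimal summits on X (3.99%) and at 0 of the 1202 on autosomes when 50 bp on each side were searched. Windows of the same length along the whole chromosomes held it in 0.0388% of cases on X and in 0.0263% on autosomes. Among the 100 strongest optimal calls, 10 of the 30 on X had it (33.3%) and 0 of the 51 on autosomes. Within 200 bp of the summit the shares were 46.7% of those 30 and 1.96% of those 51. The 30 included both xol-1 calls, and a single copy of the motif lay within 200 bp of both of their summits. X as a whole carried 81 copies (4.57 per Mb) and the autosomes 233 (2.82 per Mb). Of these, 27 copies on X (33.3%) lay within 200 bp of an optimal summit and 5 on autosomes (2.15%), so the uncalled copy inside her-1 was like most of the autosomal copies. The stronger xol-1 summit was 1 of 2 optimal summits, both on X, with 2 copies within 50 bp. These are descriptions of where letters occur, with no test, and the motif was chosen after the data were seen.

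**Figure D4:**
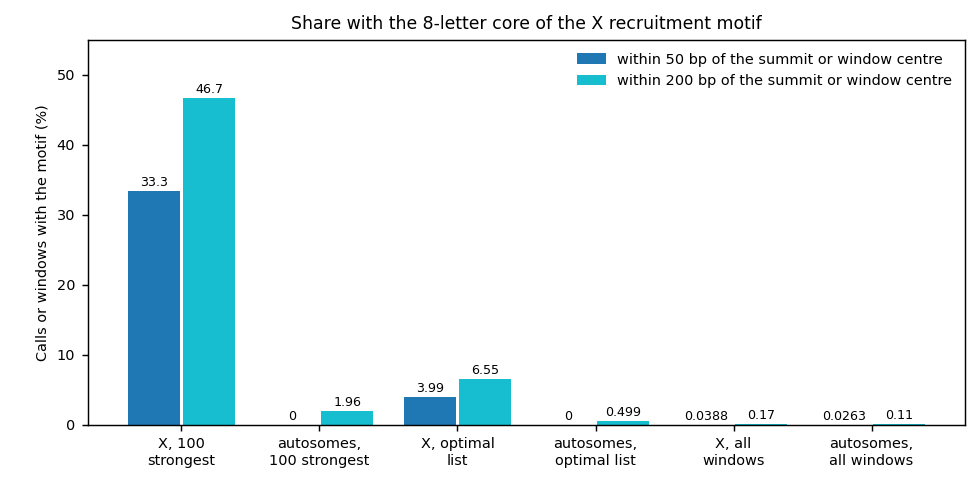
Share of calls, or of all windows of equal length along the chromosomes, that hold the 8-letter core of the X recruitment motif (percent), within 50 bp (dark) or 200 bp (light) of the summit or window centre. The bars for X among the 100 strongest calls, which include both xol-1 calls, reach 33.3% and 46.7%, against 0% and 1.96% for autosomes.

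The hexamers that lead the optimal list as a whole were found at 3 of the other optimal sites of the set. They were those with the largest excess over sequence 250 to 350 bp away, among the 1533 nuclear optimal summits outside the windows of these genes and of the related genes below, counted on both strands. GAGAGA was within 50 bp of 28.9% of those summits and in 8.22% of the flanks. CGTCTC was at 20.4% of summits and in 3.49% of flanks. GACGCA was at 18.9% of summits and in 2.25% of flanks. AGAGAG overlaps the first of these and ACGCAG the last, and CGTCTC and GACGCA can also overlap. Among the optimal calls of the set, GAGAGA was present at sdc-2 and dpy-21, AGAGAG at dpy-21 and CGTCTC at the distal sdc-1 call. Below the optimal list, the sdc-1 promoter summit had all 5 hexamers, and the strongest pooled summit of her-1 had GAGAGA and AGAGAG. The optimal summits of xol-1 and dpy-28, the strongest of the set, had none of the 5. G and C made up 28.7% (the weaker xol-1 summit) to 66.3% (dpy-21) of the bases at the 6 sites, with a median of 47.5%. Over all 1553 nuclear optimal summits the range was wider, 15.8% to 77.2%, with a median of 49.5%.

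Further genes of sex determination and dosage compensation were taken from a list in 7 groups, of which 47 of 48 symbols had a gene model. In all, 12 of the 47 (25.5%) had an optimal call in their window, against 12.5% of all coding genes, and 5 had one in a promoter window, against 4.58%. The windows of these 47 genes were not matched in length to those of all coding genes. The calls of mix-1, tra-1 and sea-2 lay far inside long genes, 16061, 9416 and 8553 bp past the 5′ end. Among 5 partners of the complex 2 had an optimal call, set-4 and mix-1. set-4, whose product methylates histone H4 lysine 20, had a promoter call 303 bp upstream with a signal of 265 (rank 150), and 168 and 93.8 in replicates 1 and 2. mix-1, which encodes the SMC partner of DPY-27, had one in intron 13 with 108 (rank 870), and 68.3 and 46.0 in the replicates. The coding 5′ end nearest to that summit was that of M106.8, at 3320 bp. capg-1, the remaining condensin subunit, had none, and its strongest pooled call had 47.6 (rank 2987). Of the 4 subunits that serve only other condensins, hcp-6 had a call 123 bp upstream with a signal of 81.3 (rank 1396), whose counterparts had ranks 1236 and 3876 in replicates 1 and 2.

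Of the 3 X signal elements, which count the X chromosomes by repressing xol-1, ceh-39 had optimal calls 2632 bp (nearer to T26C11.8) and 178 bp upstream with signals of 125 (rank 669) and 83.2 (rank 1350). fox-1 had weaker calls only (strongest 49.9, rank 2786), and sex-1 had none in the pooled list. Among the 2 autosomal elements, which oppose them, sea-2 had an intronic call with 100.3 (rank 997) and sea-1 had none.

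Below her-1 in the pathway 4 of 13 genes (30.8%) had an optimal call, against 12.5% of all coding genes. sup-26, which encodes an RNA-binding repressor of tra-2, had the highest signal of the 47 genes, 495 (rank 46) at 2036 bp upstream, with 295 in replicate 1 and 207 in replicate 2. tra-1, the terminal transcription factor of the pathway, had an optimal call in intron 4 with a signal of 120 (rank 732). tra-2, which encodes the receptor of HER-1, had one 2731 bp upstream with 98.2 (rank 1033), nearer to eif-2Bgamma at 756 bp. sel-10 had one 163 bp upstream with 100.2 (rank 1003). No optimal call was found for fem-1, fem-2, fem-3, fog-1, fog-2, fog-3, tra-3, cul-2 or laf-1, of which fem-2 came closest with 60.2 (rank 2173). Among 11 germline regulators 2 had an optimal call (18.2%). mog-4 had a promoter call with 295 (rank 123) and mog-3 a distal one with 86.5 (rank 1280). Among 9 genes of sex-specific fates only dmd-5 had an optimal call (11.1%), an intronic one with 76.1 (rank 1536), near the end of the list. Its counterparts had ranks 1949 and 1415 in replicates 1 and 2. The shares of the germline regulators (18.2%) and of the genes of sex-specific fates (11.1%) were near the 12.5% of all coding genes, with few genes in each group.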

How the data were processed

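Calls of each of 2 replicates, of the pooled replicates and of the optimal list on ce11 were deposited by the authors as narrowPeak files. Column 7 is the signal as the authors deposited it, on a scale that is not given. Column 9 is the deposited −log10 q-value, with a maximum of 3.02 in the pooled list. Aligner, caller and thresholds: not given in the sources used here. No reads were used, so depth per sample is unknown.

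Summits (start plus offset, counted from 1) were compared with coding genes of Ensembl 115, and bases were read from RefSeq (WBcel235), with Python 3.11.15, pandas 2.3.3 and numpy 2.4.6. On X the last pooled call ends at 17718942, where the reference chromosome ends. A gene window runs from 5 kb upstream of the gene to its end. A replicate's counterpart of a call is the overlapping call (at least 1 bp) with the nearest summit. Ranks are by signal. Of the optimal list on ce10, the deposited signal, width and summit offset were matched (signals within 0.1%), and no position was converted. Counting was tested on simulated calls, and all 200 planted genes were found in each of 5 rounds. No statistical test was run, as there is 1 group.

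Named are all members, the other pathway genes with an optimal call, genes nearest to a member's call and the calls next in rank to the strongest one. Genes without a call and comparison genes were added after their values were seen, as were the motif, the split by X and the 100 strongest calls. The members and gene lists were chosen with earlier results of these data known.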

Additional observations from a re-analysis of the deposited data

How the results depend on the processing

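The count of members with an optimal call (5 of 10, against 12.5% of all coding genes) became 1 with promoter windows (4.58%). It was 1 with windows from 2 kb upstream (8.6%) and 0 in gene bodies (1.88%). When a summit counted only for the nearest coding gene, it was 2 (xol-1 and sdc-2, against 6.77%). It was 5 with overlap of intervals (13.1% of all coding genes), 4 with the 787 strongest optimal calls (6.62%), 6 with 3148 pooled calls (20.9%) and 6 with the ce10 list (16.1%, added after the data were seen). Without replicate 1 it was 4 (12%) and without replicate 2 it was 4 (12.6%), sdc-1 being the gene lost. The count in the pooled list (8 of 10, against 65.3% of all coding genes) became 5 with promoter windows (29.2%). It was 5 in gene bodies (38.3%) and 9 with either replicate list alone (68.7%). Pathway genes with an optimal call (12 of 47, against 12.5% of all coding genes) became 5 with promoter windows (4.58%) and 4 in gene bodies (1.88%). They were 5 with the 787 strongest optimal calls (6.62%) and 19 with 3148 pooled calls (20.9%). Without replicate 1 they were 11 (12%), and without replicate 2 they were 10 (12.6%). The xol-1 call has rank 6 when mitochondrial calls are left out, and rank 14 in each replicate. No paired analysis was possible because there is only 1 group. With depth unknown, how much signal windows without a call held is unknown.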
